A study of Mus musculus with 12 samples.

Results

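Potassium channel genes were described here in the dorsal raphe (DR) of mice lacking STAT3 in serotonergic cells. Members were taken by gene symbol and summed count. Of 98 rows whose symbol starts with Kcn, 83 had at least 120 counts summed over the 12 libraries and were kept, out of 24421 gene rows in all. Of these, 80 were protein-coding genes in 21 subfamilies from Kcna to Kcnv, and 3 were noncoding genes named after a channel gene (Kcnq1ot1, Kcnd3os and Kcnmb4os2), which were kept apart from the subfamilies. Just inside the minimum lay Kcne2 with 153 counts and Kcnn4 with 158, and just outside lay Kcnj13 with 115.

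The study asked how loss of STAT3, a transcription factor activated by cytokine receptors, alters gene expression in the DR, the main source of serotonin for the forebrain. The 8 STAT3 KO animals (4 females, 4 males) were Sert Cre/+; Stat3 fl/fl, and the 4 controls (2 females, 2 males) were their Sert Cre/+; Stat3 fl/+ littermates, so every animal carried Cre at the serotonin transporter locus and at least 1 floxed Stat3 allele. All were on a hybrid C57 and 129 background and were untreated adults, 8 to 16 weeks old when experiments began. Cre acted in cells that express the serotonin transporter, whereas RNA came from a whole piece of DR tissue, 1 library per animal. In such bulk RNA, fewer cells of a type and less RNA per cell cannot be told apart.

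Potassium channels let potassium leave the cell and so set the resting potential, end each action potential and space out the next. Voltage-gated Kv channels (Kcna to Kcnd, Kcnq, Kcnh) open on depolarisation and are tuned by beta subunits (Kcnab, Kcne, Kcnip) and by silent subunits that form channels only with a partner (Kcnf, Kcng, Kcns, Kcnv). Inward rectifiers (Kcnj), two-pore leak channels (Kcnk) and calcium- or sodium-activated channels (Kcnn, Kcnma, Kcnt) hold the membrane near rest or slow firing. In serotonergic neurons, the GIRK inward rectifiers are the textbook effectors of the 5-HT1A autoreceptor, and SK channels (Kcnn) carry the afterhyperpolarisation that keeps firing slow and regular.

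The libraries held 24379588 to 29645210 counts on genes, and a floor of 3 counts corresponded to 0.101 to 0.123 CPM (counts scaled to a common library total). Serotonergic markers (Tph2, Slc6a4, Fev, Slc18a2 and Ddc) summed to 1453 to 1829 CPM in controls and 1302 to 1948 CPM in STAT3 KO. Stat3 itself was at 66.6 ± 1.49 CPM in controls (SD, n = 4) and 66.3 ± 2.72 CPM in STAT3 KO (SD, n = 8), so its gene-level count in bulk tissue did not check the genotype labels. Control 4 stood apart: 8 forebrain excitatory markers summed to 272 CPM there, against 25.5 to 35.4 CPM in the other controls and 17.5 to 90.3 CPM in STAT3 KO. Choroid plexus markers summed to 231 CPM in STAT3 KO 16 and 238 CPM in STAT3 KO 8, with no other library above 23.3 CPM. Results are therefore also given without control 4 and, where a call changed, without STAT3 KO 8 and 16.

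Since STAT3 acts on DNA, the promoters of the members (250 bases before to 50 bases after the annotated start, RefSeq, GRCm38.p6) were searched for the STAT-type palindrome TTCNNNGAA, which reads the same on both strands. It occurred in 8 of 60 member genes that had a promoter sequence (13.3%), against 9.55% of 27025 genes. Some genes have more than 1 promoter. Counted per promoter, it occurred in 8 of 84 for members (9.52%), against 8.30% of all 32851. The narrower TTCCNGGAA occurred in 0 of the 60 genes, against 1.35% of all. The 8 matches are shown to give the reader the letters beside each gene's result, with the match in capitals and 10 bases on each side, written 5′ to 3′ on the strand of the gene.
Kcnj9, chr1:172329526-172329554, minus strand: tgcctctattTTCCCAGAAtgaggagcac
Kcnip3, chr2:127522140-127522168, minus strand: ctcctgggctTTCTGGGAAagaggggatg
Kcnmb2, chr3:31902668-31902696, plus strand: tccacagagcTTCGGAGAActaatcttaa
Kcnab1, chr3:64949014-64949042, plus strand: aatttccataTTCCAAGAAgtgacaggta
Kcnip1, chr11:33680862-33680890, minus strand: ccctgaatccTTCAGAGAAtatgctggga
Kcnj16, chr11:110967838-110967866, plus strand: ttgagtgaccTTCAGAGAAacagaaccag
Kcnj6, chr16:94997663-94997691, minus strand: ccgagtagcaTTCGTTGAAtctgcggctt
Kcnk4, chr19:6934706-6934734, minus strand: tatcagtgacTTCCTAGAActaggaccca
The match in Kcnab1 lay before an upstream start, since the gene body in the GENCODE annotation begins at position 65109384 of chromosome 3. The match in Kcnip1 lay before an internal start, within the gene body of 33629339 to 33993152 on chromosome 11. Among the 14 members with a promoter sequence and an unadjusted p below 0.05 for genotype, Kcnab1 was the 1 with a match. Log2 fold changes of the other 7 (STAT3 KO minus control) ran from -0.11 in Kcnj6 and Kcnk4 to 0.05 in Kcnj16 and Kcnip1.

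The DR expressed a broad set of channels, with a few subfamilies holding most of the RNA. On the scale of CPM per kilobase of exon, which allows levels of different genes to be compared, the coding members summed to 866 ± 59.5 (SD, n = 12 animals). Kcnj, Kcna, Kcnc, Kcnab and Kcnk together made up 73.3% of that sum. At the other end, 21 of the 83 members were below 1 CPM per kilobase, while 25 were above 10.

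Kcnj, the inward rectifiers, had the highest summed level, 167 ± 8.88 CPM per kilobase (SD, n = 12), and Kcnj10, the Kir4.1 channel of astrocytes and oligodendrocytes, supplied 56.1% of it. Kcna followed with 146 ± 16.5 CPM per kilobase, led by Kcna1 at 65.7 ± 11.5. Kcnc, the fast delayed rectifiers, was at 135 ± 15.8 CPM per kilobase, with Kcnc4 at 36.8, Kcnc1 at 36.2 and Kcnc2 at 15.1. Each of these subfamilies was above the next in 12 of 12 animals, although the ranges over animals overlapped. Kcnab, the cytoplasmic beta subunits of Kcna channels, reached 115 ± 12.7 CPM per kilobase, of which Kcnab2 gave 66.2%.

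Below these, levels stepped down without overlapping ranges from Kcnab to Kcnk (72.6 ± 3.51 CPM per kilobase, led by the leak channel Kcnk1 at 38.4), to Kcnip (53.1 ± 1.98, led by Kcnip4), to Kcnd (38.1 ± 1.77, led by Kcnd2) and to Kcnh (29.8 ± 2.46, led by the ERG channel Kcnh2). Kcnd channels and their Kcnip subunits carry the A-type current that delays the next spike. Kcnq, which holds the subunits of the M-current that restrains repetitive firing, was at 26.0 ± 1.49 CPM per kilobase. Kcng was at 19.0 ± 4.53, nearly all of it Kcng4 (92.8%), and Kcnt at 15.0 ± 0.983, nearly all of it Kcnt1 (90.6%), a sodium-activated channel. Order could not be given for Kcne (8.82 ± 0.787), Kcnb (8.81 ± 0.928) and Kcns (8.76 ± 0.477), whose neighbours in the order were above one another in only 5 and 6 of 12 animals. The SK genes (Kcnn) summed to 10.2 ± 0.562 CPM per kilobase, just above these. Lowest were Kcnmb, Kcnf, Kcnma, Kcnv, Kcnu and Kcnrg, at 4.52 to 0.362 CPM per kilobase, where Kcnv and Kcnu also changed places between animals (Kcnv higher in 7 of 12). Taking the longest transcript as the length of each gene, Kcnab moved from the fourth place to the second.

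**Figure D1:**
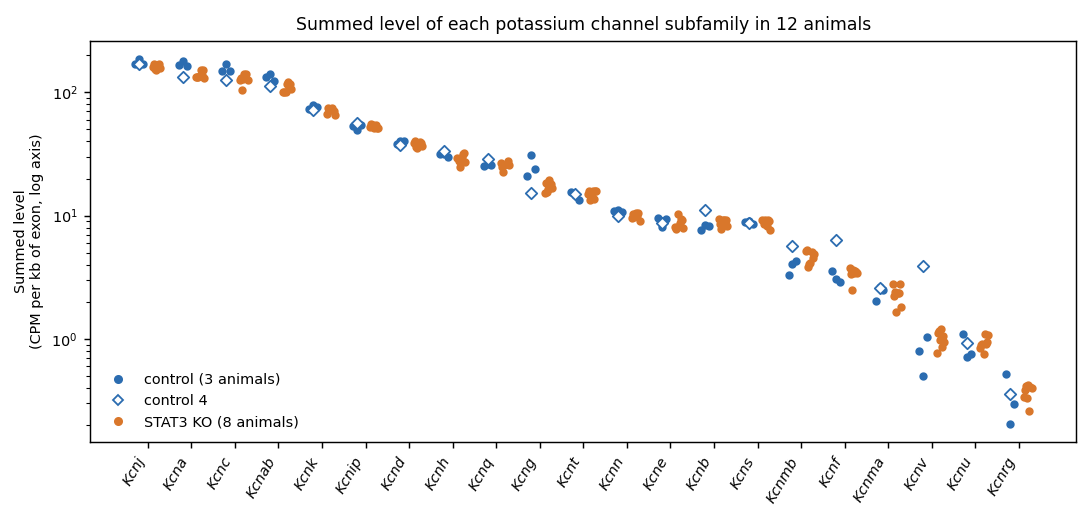
Summed level of the coding members of each Kcn subfamily in every animal, in CPM per kilobase of exon on a log axis, ordered by the mean over 12 animals. Each point is 1 animal; the open diamond is control 4, which lies far above the other controls in Kcnv and Kcnf and below them in Kcna, Kcnab and Kcng.

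Genes lying next to each other did not share a level. On chromosome 6, Kcna5, Kcna1 and Kcna6 lie within 126532551 to 126740674 and were at 2.76, 65.7 and 27.5 CPM per kilobase. On chromosome 3, Kcna3 and Kcna2 lie 63076 bases apart and were at 5.51 and 39.4 CPM per kilobase. Kcnj9 and Kcnj10 lie 11892 bases apart on chromosome 1, at 12.6 and 93.4 CPM per kilobase. On the log2 scale of STAT3 KO minus control, Kcna1 was at -0.33 beside Kcna6 at -0.03 and Kcna5 at 0.15, Kcna2 at -0.27 beside Kcna3 at 0.05, and Kcnj9 at -0.05 beside Kcnj10 at -0.12. Differences between neighbours were not tested.

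Across genotypes, no potassium channel gene passed correction. With edgeR's quasi-likelihood test and Benjamini-Hochberg adjustment over 15453 genes, 0 of the 82 members tested were called (adjusted p of at least 0.615), where 0.0% of all genes were called. Kcne2 had too few counts to be tested. At an unadjusted p below 0.05 there were 18 members (22.0%), against 7.66% of all genes tested. Of the 18, 15 were lower in STAT3 KO (18.3% of members, against 4.05% of all genes) and 3 were higher (3.66%, against 3.61%). DESeq2 also called 0 members, with 18 of 83 below an unadjusted p of 0.05, against 1244 of 20056 genes in that fit (2 called), but its filter left only 8 members with an adjusted p, the smallest being 0.0733 for Kcna2.

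Counted by gene, the members leaned lower in STAT3 KO, and this lean rested on control 4. The log2 fold change was below 0 in 60 of 82 members (73.2%), against 50.6% of all genes tested, with a median of -0.07 against 0.00 over all genes. Without control 4, 43 of 83 members were lower (51.8%, against 47.8% of all genes in that fit), and their median was -0.00055. The count at an unadjusted p below 0.05 was then 22 of 83 (26.5%), against 8.96% of all genes: 15 lower (18.1%, against 4.92%) and 7 higher (8.43%, against 4.04%). Of the 18 members counted with all animals, 15 were also below 0.05 in the same direction without control 4, and 15 without STAT3 KO 8 and 16. Kcnh1, Kcnj4 and Kcnn4 were no longer below 0.05 without control 4, and Kcnj10, Kcnk12 and Kcnj4 without STAT3 KO 8 and 16. Leaving out control 3 instead gave 13 of 83 members below 0.05, against 778 of 15553 genes. Of these 13 members, 11 were lower and 2 higher, and the smallest edgeR adjusted p of any member was 0.979. Members took 0.497 to 0.577% of all gene counts in controls and 0.455 to 0.525% in STAT3 KO, so the genotypes overlapped in total. This overlap came from control 4 (0.497%). Controls 3, 11 and 13 were at 0.577, 0.533 and 0.539%, above every STAT3 KO animal.

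**Figure D2:**
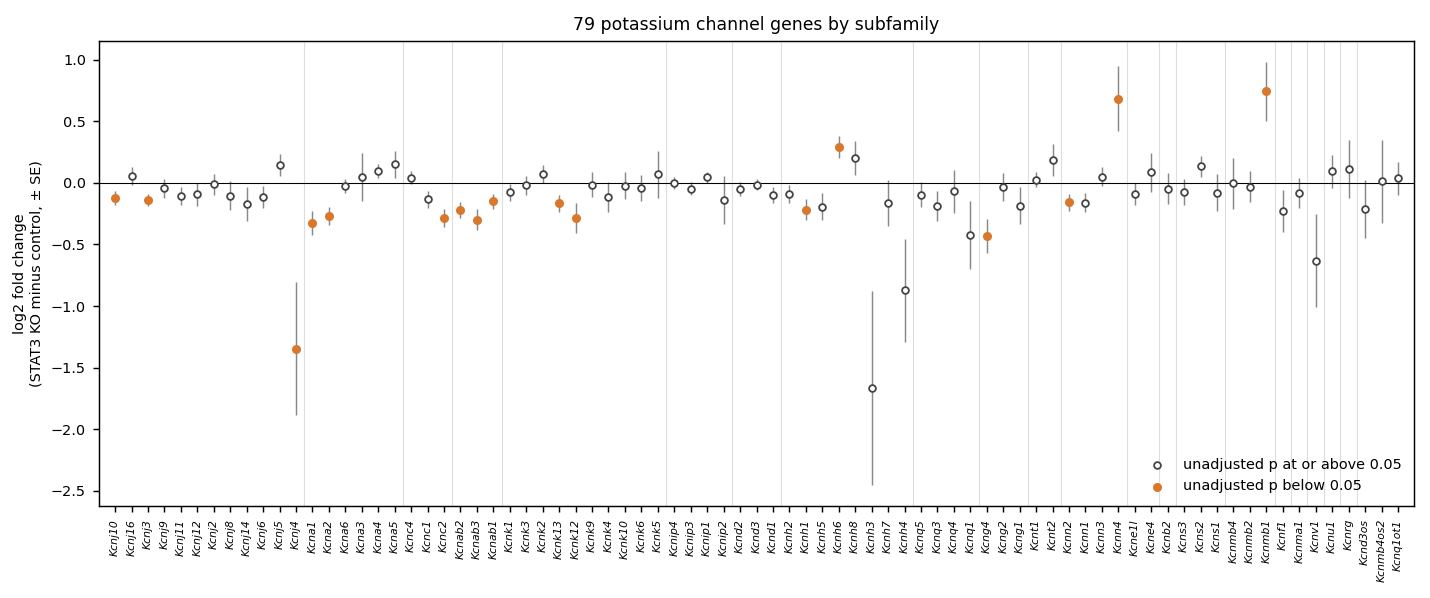
Log2 fold change of 79 of the 82 tested members (STAT3 KO minus control, n = 8 and 4 animals, bars ± SE from edgeR), in subfamilies ordered by level and, within each, by the level of the gene. Filled points have an unadjusted p below 0.05; none passed adjustment, and the widest bars belong to Kcnh3, Kcnj4 and Kcnh4, which were high in control 4.

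One list held Kcna, Kcnab and Kcnc genes that give axons and fast-firing neurons their short action potentials. Of its 9 genes, 8 were lower in STAT3 KO, where 50.6% of all genes were, and 7 of these had an unadjusted p below 0.05, where 4.05% of all genes were lower at that p. Their median log2 fold change was -0.27. The 3 subfamilies hold 13 tested members, of which the list takes 2 of the 6 Kcna genes, and Kcna as a whole had 3 genes lower and 3 higher, with a median of 0.01. Without control 4 the median was -0.34 and 8 of 9 were lower at a p below 0.05, against 4.92% of all genes. This group was assembled with earlier results of these data known, so its count is a description.

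Kcna2, the Kv1.2 subunit found beside the nodes of myelinated axons, was at 619 CPM in control 3, 425 in control 4, 531 in control 11 and 539 in control 13. In STAT3 KO it ranged from 398 through a median of 432 to 482 CPM. All 8 STAT3 KO animals were below 3 of the controls, and control 4 lay among them. The log2 fold change was -0.27 ± 0.08 (SE; unadjusted p = 0.00268 and adjusted p = 0.615, edgeR; two-sided exact permutation p = 0.0141), and -0.36 without control 4 (adjusted p = 0.0789).

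Kcna1, the Kv1.1 subunit that co-assembles with Kv1.2, had the same layout. Controls 3, 11 and 13 were at 423, 366 and 393 CPM and control 4 at 269 CPM. The STAT3 KO animals ran from 248 through a median of 284 to 340 CPM, again below each control but control 4. Its log2 fold change was -0.33 ± 0.10 (SE; edgeR adjusted p = 0.615), and -0.44 without control 4 (adjusted p = 0.0789). The third Kcna gene with a high level, Kcna6, was at a log2 fold change of -0.03 ± 0.05, and 39.6% of its exon length is shared with a gene on the opposite strand.

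All 3 beta subunits were lower. Kcnab2 was at 471 ± 42.3 CPM in controls (SD, n = 4) and 404 ± 33.2 CPM in STAT3 KO (SD, n = 8), a log2 fold change of -0.22 ± 0.07 (SE). Kcnab3 was at 95.1 and 93.2 CPM in the female controls 3 and 13, at 76.0 and 74.6 CPM in the male controls 4 and 11, and at 57.4 to 76.6 CPM in STAT3 KO. Thus Kcnab3 separated the female controls, not the male ones, from the knockouts. Kcnab1 was at a log2 fold change of -0.15 ± 0.06 (SE; unadjusted p = 0.0226, edgeR), the smallest of the 3.

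Among the Kcnc channels, whose fast closing allows high firing rates, the difference was uneven. Kcnc2 (Kv3.2) had the smallest unadjusted p of any member. It was at 136, 101, 124 and 128 CPM in controls 3, 4, 11 and 13, and at 86.3 to 115 CPM in STAT3 KO with a median of 99.9. The log2 fold change was -0.29 ± 0.07 (SE; unadjusted p = 0.00137 and adjusted p = 0.615, edgeR; exact permutation p = 0.00808). Kcnc1 (-0.13 ± 0.07) and Kcnc4 (0.04 ± 0.05) did not pass an unadjusted p of 0.05 with all animals, and Kcnc1 was at -0.18 without control 4 (edgeR unadjusted p = 0.0283).

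Kcng4, a silent subunit that modifies Kcnb channels, had the largest log2 fold change of the lower members outside those that rest on control 4. Its values were 113, 51.9, 85.2 and 74.5 CPM in controls 3, 4, 11 and 13, against 52.8 to 68.6 CPM in STAT3 KO. Control 3 was far above the rest and control 4 below every other animal. The log2 fold change was -0.43 ± 0.14 (SE; edgeR adjusted p = 0.615), -0.60 without control 4 and -0.23 without control 3.

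**Figure D3:**
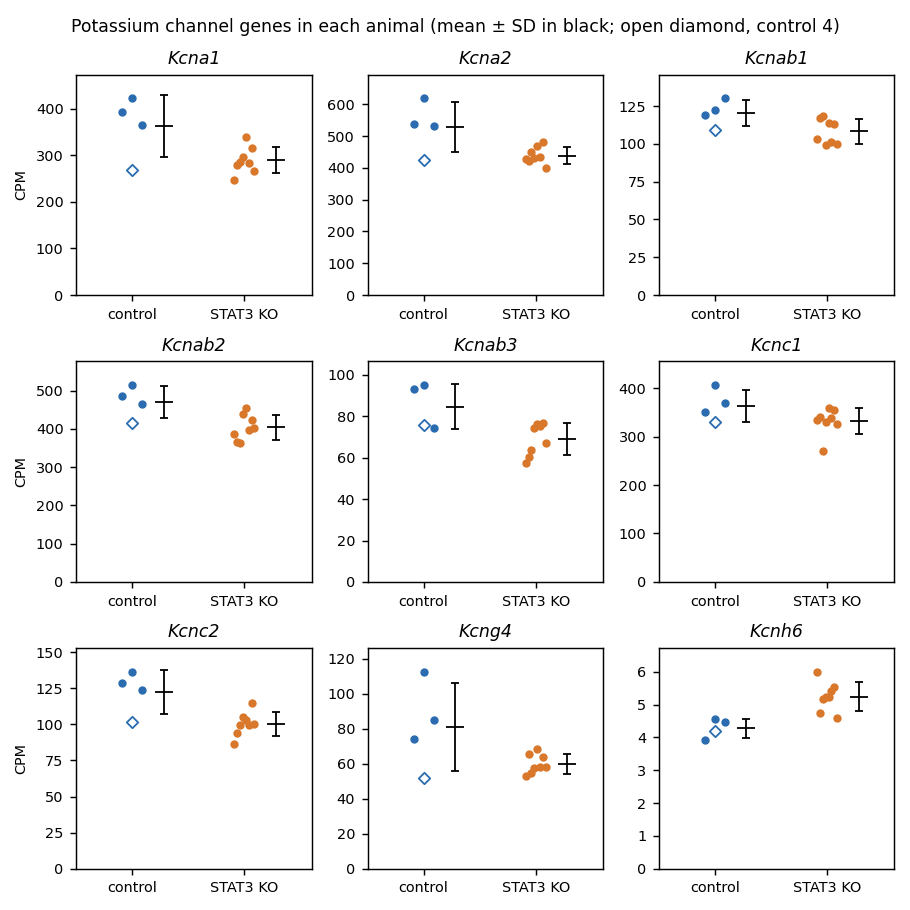
CPM of 9 members in every animal, each panel starting at 0, with controls in blue (control 4 as an open diamond), STAT3 KO in orange and the mean ± SD of each genotype in black (n = 4 and 8). In Kcna1, Kcna2, Kcnc2 and Kcng4 the other 3 controls lie above all 8 STAT3 KO animals while control 4 lies among or below them; Kcnh6 is the 1 member in which all 8 lie above all 4 controls.

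Summed by subfamily per kilobase, the same pattern held. Kcna was at 179, 134, 163 and 167 CPM per kilobase in controls 3, 4, 11 and 13 and at 130 to 153 in STAT3 KO. Kcnab was at 128 ± 11.4 (SD, n = 4) and 109 ± 8.02 CPM per kilobase (SD, n = 8), and Kcnc at 148 ± 17.4 and 129 ± 11.1. In each of the 3 subfamilies control 4 was the 1 control within the range of the STAT3 KO animals. Kcnip (53.5 ± 3.06 against 52.9 ± 1.42) and Kcnd (38.8 ± 1.51 against 37.8 ± 1.88) differed by less than 1 SD of either genotype.

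Markers of several cell types also differed between the libraries. Dopaminergic markers (Th and Slc6a3) summed to 201 CPM in control 3, 105 in control 13, 86.2 in control 11 and 50.6 in control 4, and to 33.8 to 97.8 CPM in STAT3 KO. Slc6a3 was at a log2 fold change of -0.91 ± 0.39 (SE; edgeR adjusted p = 0.631) and Th at -0.38 ± 0.23 (SE). Without control 4, Slc6a3 was at -1.19 (edgeR unadjusted p = 0.00553) and Th at -0.58 (edgeR unadjusted p = 0.0161). Control 3, the highest library for Kcna1, Kcna2, Kcnab2 and Kcng4, was thus also the highest for these markers. Cerebellar markers (Pcp2, Gabra6, Cbln3, Fat2 and Ppp1r17) went the other way between genotypes, with all 5 above 0 in log2 fold change and a median of 1.08. They summed to 81.6 CPM in control 3, against 3.93 to 7.44 CPM in the other controls, and to 3.91 to 276 CPM in STAT3 KO, where STAT3 KO 16 and STAT3 KO 10 (88.7 CPM) were highest. The oligodendrocyte markers Mbp, Mog and Mag were all lower in STAT3 KO, by at most 0.13 in log2 (Mag, -0.13 ± 0.06). The part of tissue composition in the Kcna, Kcnab and Kcnc values was not tested. Without control 3, the log2 fold change was -0.18 for Kcna2, -0.24 for Kcna1, -0.17 for Kcnab2, -0.23 for Kcnab3 and -0.23 for Kcnc2.

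Without control 4, the genotypes did not overlap in 10 of 82 members (12.2%), against 2.79% of all genes. The values were lower in STAT3 KO in 7 of these, among them Kcna1, Kcna2, Kcnab1, Kcnab2, Kcnc2 and Kcng4, where 1.93% of all genes were lower without overlap, and higher in 3 (Kcnh6, Kcnj5 and Kcnt2). With all animals, Kcnh6 was the 1 member without overlap (1.22%, against 0.447% of all genes). At a two-sided exact permutation p below 0.05 there were 12 members with all animals (14.6%, against 7.1% of all genes) and 19 without control 4 (23.2%, against 8.81%). The smallest p that the 495 splits of 12 animals can give is 0.00202.

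Kcnh6 encodes an ERG channel, a relative of Kcnh2. It was at 4.56, 4.18, 4.47 and 3.92 CPM in controls 3, 4, 11 and 13, and at 4.59 to 5.99 CPM in STAT3 KO, with a median of 5.23. The highest control and the lowest STAT3 KO animal nearly met. The log2 fold change was 0.29 ± 0.09 (SE; edgeR adjusted p = 0.615; exact permutation p = 0.00202, the smallest these animals allow). Kcnh2, at 21.7 against 1.39 CPM per kilobase for Kcnh6, was at -0.09 ± 0.07.

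The other members higher in STAT3 KO at an unadjusted p below 0.05, Kcnmb1 and Kcnn4, were scarce. Kcnmb1, a BK channel beta subunit typical of smooth muscle, was at 1.95 ± 0.720 CPM in controls (SD, n = 4) and 3.26 ± 0.827 CPM in STAT3 KO (SD, n = 8). Its log2 fold change was 0.74 ± 0.24 (SE; edgeR adjusted p = 0.615), with 6 of 8 STAT3 KO animals above every control. The gene lies inside Kcnip1, on the opposite strand of chromosome 11 at 33963013 to 33973641. Kcnn4 was at 0.335 ± 0.111 and 0.542 ± 0.114 CPM, close to the floor, with a log2 fold change of 0.68 ± 0.26 (SE), and 0.62 without control 4 (edgeR unadjusted p = 0.0557). Mural cell markers (Pdgfrb, Rgs5, Cspg4 and Myh11) summed to 109 to 136 CPM in controls and 90.9 to 137 CPM in STAT3 KO. All 3 ependymal markers (Foxj1, Tmem212 and Ccdc153) were at a higher mean in STAT3 KO, with a median log2 fold change of 0.99, and 0.64 without control 4, where Kcnmb1 was at 0.56. They summed to 24.2 and 17.3 CPM in controls 13 and 4, to 37.5 and 48.9 CPM in controls 3 and 11, and to 24.4 to 64.3 CPM in STAT3 KO. These markers and Kcnmb1 had the same order among the controls, lowest in control 4 and highest in control 11, and both were lowest in STAT3 KO 8 among the knockouts. Their part in the Kcnmb1 value was not tested.

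The largest fold changes of all belonged to genes abundant in the forebrain, and they came from 1 library. Kcnh3, an Elk channel of cortex and hippocampus, was at 17.2 CPM in control 4 and 0.710 to 1.04 CPM in the other controls, against 0.403 to 4.52 CPM in STAT3 KO. Its log2 fold change was -1.67 ± 0.79 (SE) and turned to 0.91 without control 4. Kcnj4 was at 11.5 CPM in control 4, 0.865 to 1.50 CPM in the other controls and 0.879 to 2.97 CPM in STAT3 KO, and went from -1.34 ± 0.54 (edgeR unadjusted p = 0.0243, exact permutation p = 0.392) to 0.25. The silent subunit Kcnv1 was at 18.1 CPM in control 4 and 2.32 to 4.74 CPM in the other controls, against 3.56 to 5.57 CPM in STAT3 KO, and went from -0.63 ± 0.38 to 0.39. Kcnh4 (-0.87 to 0.11) and Kcnf1 (-0.23 to 0.10) turned as well. In all, 19 of 82 members changed sign when control 4 was left out, and 17 of the 83 had their highest value in that library.

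**Figure D4:**
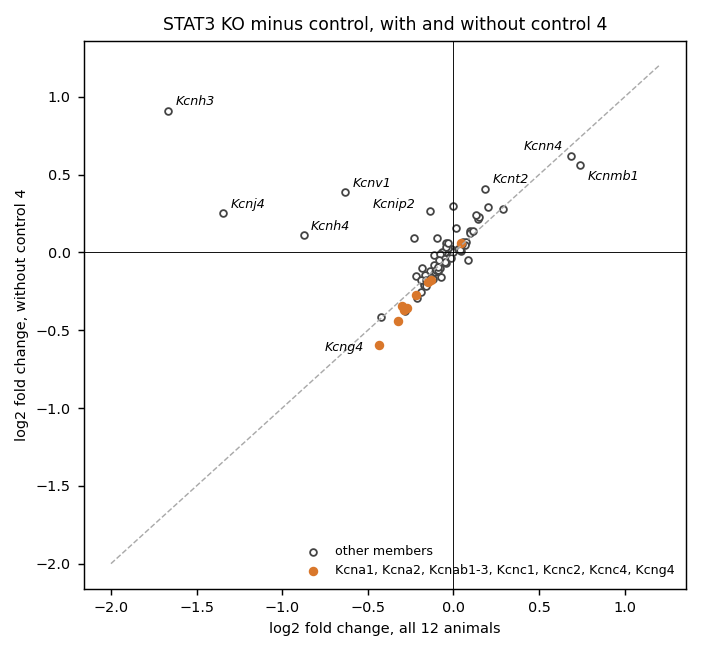
Log2 fold change of 79 tested members (STAT3 KO minus control) with all 12 animals on the x axis and without control 4 on the y axis; the dashed line marks equal values. Kcnh3, Kcnj4, Kcnv1 and Kcnh4 lie left of 0 and above it, while the Kcna1, Kcna2, Kcnab, Kcnc and Kcng4 points in orange lie mostly below the line, farther from 0 without control 4.

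The GIRK genes, which couple to the 5-HT1A autoreceptor, were led by Kcnj3 (GIRK1; 14.6 ± 1.01 CPM per kilobase, SD, n = 12) and Kcnj9 (GIRK3; 12.6 ± 1.18), with Kcnj6 (GIRK2; 1.38 ± 0.140) and Kcnj5 (GIRK4; 1.18 ± 0.113) far below. Kcnj3 was at 79.8, 83.8, 79.5 and 81.5 CPM in controls 3, 4, 11 and 13, and at 67.9 to 81.6 CPM in STAT3 KO with a median of 73.9. All STAT3 KO animals but STAT3 KO 16 were below every control. The log2 fold change was -0.14 ± 0.05 (SE; unadjusted p = 0.0102 and adjusted p = 0.615, edgeR; exact permutation p = 0.0202), and -0.12 without control 4. A gene on the opposite strand shares 31.1% of Kcnj3's exon length, and strand was not given for the counts.

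Of the other GIRK genes, none had an unadjusted p below 0.05 with all animals. Kcnj6 was at -0.11 ± 0.09, Kcnj9 at -0.05 ± 0.07 and Kcnj5 at 0.15 ± 0.09 in log2 fold change (SE). Kcnj5 was at 4.56, 5.89, 5.24 and 5.03 CPM in controls 3, 4, 11 and 13 and at 5.25 to 6.36 CPM in STAT3 KO, so the genotypes separated only when control 4 was left out (0.22 in log2, edgeR unadjusted p = 0.0443). Differences between the GIRK genes were not tested.

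The 4 Kcnn genes include the SK channels that set the pause after a spike. Kcnn2 was lower and Kcnn4 (given above) higher in STAT3 KO at an unadjusted p below 0.05. Over all genes tested, 4.05% were lower and 3.61% higher at that p. Kcnn2 (SK2), the most abundant at 3.80 ± 0.357 CPM per kilobase, was at 30.5 ± 1.76 CPM in controls (SD, n = 4) and 27.3 ± 2.44 CPM in STAT3 KO (SD, n = 8), a log2 fold change of -0.16 ± 0.07 (SE; unadjusted p = 0.0337 and adjusted p = 0.63, edgeR). 5 of the 8 STAT3 KO animals were below every control. Kcnn1 (SK1) was also at -0.16 ± 0.08 (unadjusted p = 0.0609, edgeR). Kcnn3 (SK3), the form best known from monoaminergic neurons, was at 0.05 ± 0.08, with 3 STAT3 KO animals above and 1 below all controls. Neither Kcnn1 nor Kcnn3 passed an unadjusted p of 0.05 with all animals, and Kcnn1 was at -0.22 without control 4 (edgeR unadjusted p = 0.0171).

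**Figure D5:**
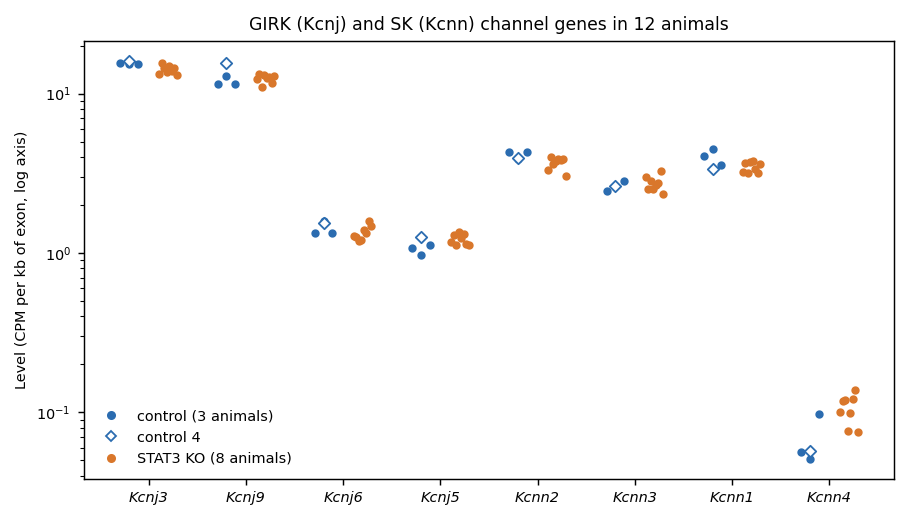
Level of the 4 GIRK genes and the 4 Kcnn genes in every animal, in CPM per kilobase of exon on a log axis, with control 4 as an open diamond. Kcnj3 and Kcnj9 lie well above Kcnj6 and Kcnj5, and Kcnn4 lies far below the SK genes and higher in most STAT3 KO animals.

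Of 4 tested channels of glia and barriers, Kcnj10 and Kcnk13 were lower in STAT3 KO at an unadjusted p below 0.05, where 4.05% of all genes were, and Kcnj16 and Kcnj8 were not below it. Kcnj10 was at 534 ± 47.0 CPM in controls (SD, n = 4) and 491 ± 29.7 CPM in STAT3 KO (SD, n = 8), a log2 fold change of -0.12 ± 0.06 (SE; unadjusted p = 0.0475, edgeR; exact permutation p = 0.0788). It was at -0.17 without control 4, at -0.06 without control 3 and at -0.11 without STAT3 KO 8 and 16, where it was no longer below 0.05 (edgeR unadjusted p = 0.0884). Its glial partner Kcnj16 was at 0.05 ± 0.07. All 4 astrocyte markers (Aqp4, Aldh1l1, Slc1a3 and Gfap) had a log2 fold change above 0, with a median of 0.12 and the largest in Slc1a3 (0.28 ± 0.11; edgeR unadjusted p = 0.0215), and they summed to 523 to 641 CPM in controls and 579 to 814 CPM in STAT3 KO. The oligodendrocyte markers Mbp, Mog and Mag were all below 0, with Mag at -0.13 ± 0.06, and -0.17 without control 4. The part of these markers in the Kcnj10 and Kcnj16 values was not tested. The microglial leak channel Kcnk13 was at -0.17 ± 0.07, with 6 of 8 STAT3 KO animals below every control and a range of -0.20 to -0.12 when 1 animal was left out, while 4 microglial markers were at a median of -0.06. Kcnj8, of pericytes, was at -0.10 ± 0.12. Kcne2, of choroid plexus, was at 1.84 CPM in STAT3 KO 16 and 1.66 CPM in STAT3 KO 8, and at 0.103 to 0.439 CPM elsewhere. Kcnj13, just below the count minimum and also of choroid plexus, was at 2.54 and 0.935 CPM in the same animals, the highest of the series.

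The remaining families showed small differences. None of the 7 A-type genes (Kcnd1 to Kcnd3 and Kcnip1 to Kcnip4) and none of the 3 M-current genes (Kcnq subfamily) had an unadjusted p below 0.05, with medians of -0.05 and -0.10 in log2 fold change. Kcnip2 was highest in control 4 (18.7 CPM, with controls 3, 11 and 13 at 6.61 to 9.32 CPM) and went from -0.14 to 0.26 without that animal (edgeR unadjusted p = 0.034). Of 10 leak channels (Kcnk), 8 were lower (50.6% of all genes were) and 2 of these passed an unadjusted p of 0.05 (4.05% of all genes), Kcnk13 and Kcnk12 (-0.29 ± 0.13). Without control 4, 6 of the 10 were lower. Kcnk12 was at 13.3 CPM in control 3 and at 7.92 to 9.15 CPM in the other controls, and its log2 fold change was -0.10 without control 3 and -0.27 without STAT3 KO 8 and 16 (edgeR unadjusted p = 0.0683). Among Kcnh genes, Kcnh1 was at -0.22 ± 0.09 (unadjusted p = 0.0245, edgeR) and -0.15 without control 4 (unadjusted p = 0.121, edgeR). The sodium-activated Kcnt1 was at 0.02 ± 0.06. Its relative Kcnt2 was at 12.7 CPM in control 4, 6.72 to 8.20 CPM in the other controls and 8.75 to 10.6 CPM in STAT3 KO, and went from 0.19 ± 0.13 to 0.41 without control 4 (edgeR unadjusted p = 0.000428 and adjusted p = 0.157). Kcns2, Kcnip2, Kcna4, Kcnc1, Kcnn1 and Kcnj5 were likewise below 0.05 without control 4 and not with all animals. The BK channel Kcnma1 was at -0.08 ± 0.12. Over all 82 members, 62 had a log2 fold change smaller than 0.2 in size.

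Genes that work with the channels were compared from lists of partners and pumps. Of 13 partner genes tested, 9 were lower and 3 of them had an unadjusted p below 0.05: Lgi3 (-0.15 ± 0.06 in log2 fold change, SE), Lgi1 (-0.11 ± 0.05), both ligands of the Kv1-associated Adam22 complex, and Abcc9 (-0.21 ± 0.10), a subunit of KATP channels. Of 11 genes of the sodium-potassium pump and of chloride cotransporters, 9 were lower and 5 had an unadjusted p below 0.05, the largest being Slc12a2 (-0.17 ± 0.05), which carries potassium into cells with sodium and chloride. Without control 4, Lgi3 was the 1 partner gene left below 0.05 (-0.21), and Lgi1 (edgeR unadjusted p = 0.065) and Abcc9 (edgeR unadjusted p = 0.0855) were not. The pump count was again 5 without control 4, where 4.92% of all genes were lower at that p. Over all genes tested, 50.6% were lower and 4.05% were lower at an unadjusted p below 0.05. The medians of the partner and pump lists were -0.06 and -0.09, and none was called after adjustment by edgeR's quasi-likelihood test.

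Between the sexes, with genotype in the model, 0 members were called by edgeR's quasi-likelihood test, where 0.0841% of all genes were. At an unadjusted p below 0.05 there were 3 members (3.66%), against 7.2% of all genes, and DESeq2 also gave 0 and 3, where it called 24 of 20056 genes and put 1102 below 0.05. All 3 were lower in the 6 males than in the 6 females: Kcnt1 by -0.12 ± 0.05 in log2 (SE), Kcnj10 by -0.11 ± 0.05 and Kcnk12 by -0.23 ± 0.11. Without control 4, 1 of 83 members was left below 0.05, against 1024 of 15545 genes.

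For the difference of the genotype effect between the sexes, 0 members were called by edgeR's quasi-likelihood test (adjusted p of at least 0.898), where 0.0% of all genes were. At an unadjusted p below 0.05 there were 14 members (17.1%), against 5.49% of all genes. Without control 4, which is male, there were 3 (3.61%), against 4.37% of all genes. DESeq2 gave 0 members called and 15 of 83 below 0.05, against 2 and 785 of 20056 genes. Each control cell held only 2 animals.

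Kcnab3 had the smallest p of this kind. In females it was at 93.2 and 95.1 CPM in controls and 57.4 to 76.6 CPM in STAT3 KO, and in males at 74.6 and 76.0 CPM in controls and 64.0 to 76.3 CPM in STAT3 KO. The effect in males minus that in females was 0.47 ± 0.14 in log2 (SE; unadjusted p = 0.00462 and adjusted p = 0.898, edgeR), and 0.48 without control 4. Kcns3, a silent subunit, was at 15.9 and 18.9 CPM in female controls, at 11.7 to 15.5 CPM in female STAT3 KO, at 12.4 and 13.6 CPM in male controls and at 13.5 to 16.3 CPM in male STAT3 KO. Its difference between the sexes was 0.54 ± 0.16 in log2, and 0.47 without control 4. The values for Kcns2 (-0.42 ± 0.14), Kcnv1 (-1.82 ± 0.55) and Kcnh4 (-2.15 ± 0.71) shrank to -0.30, -0.56 and -0.80 without that animal.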

How the data were processed

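RNA of the DR of 12 mice was sequenced by the authors (NEBNext Ultra II RNA kit, single reads), 1 library per animal. Per the labels and the study's methods, reads were mapped to mm10 with STAR 2.5.0b; the read counter, annotation and strand setting are not given in the sources used here. The deposited files hold raw counts per gene symbol. The no_feature and ambiguous lines were left out, and 84.2 to 86.1% of each library's counts lay on genes.

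Genotype, sex and animal numbers came from the labels. Nothing pairs controls with STAT3 KO animals. The members and gene lists were chosen with earlier results of these data known. Genes named are those with an unadjusted p below 0.05 for genotype or below 0.01 for sex or the interaction, without overlap between genotypes, highest in their subfamily, turning sign beyond 0.2 in log2 without control 4, most variable (3 genes), next to the count minimum, or among GIRK, Kcnn and glial and barrier channels; further members named beside them for subfamily, neighbours or figures were chosen after their values were seen. Values of 3 members are not reported here, though counts and sums include them.

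CPM and log2 CPM (prior count 2) used TMM factors. Main test: edgeR 4.0.16 quasi-likelihood, two-sided, after filterByExpr, on whole library sizes, Benjamini-Hochberg over all genes tested; SE is the fold change divided by the root of F. Single genes were also compared by exact permutation of mean log2 CPM over animals. Levels per kilobase used merged GENCODE exons on GRCm38. Alternatives were DESeq2 1.42.0, limma 3.58.1 (voom with quality weights), RLE factors, other count filters, sex as covariate and leaving out animals; R 4.3.3 and Python 3.11.15 were used. Scripts were tested on simulated data. The count floor covers counting error only.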

Additional observations from a re-analysis of the deposited data

Results flagged for a closer look

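In 82 groups examined (41 named members in 2 genotypes), the highest or lowest library stood apart from the others of its genotype 4 times, where chance alone gives about 1 in 20 groups (4.1). The measure is the gap to the nearest library divided by the whole range of log2 CPM. Kcnh3 was high in control 4 (4.11 against 0.15 for the next control, ratio 0.886). Kcnip4 was low in control 3 (6.34 against 6.41, ratio 0.850), a gap smaller than 0.1 in log2. Kcnn4 was high in control 11 (-0.80 against -1.46, ratio 0.844). STAT3 KO 8, which held choroid plexus RNA, was the lowest STAT3 KO animal for Kcnf1 (3.59 against 4.00, ratio 0.718).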

How the results depend on the processing

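Under all alternatives to the genotype test, 0 members were called. Over all genes, 0 were called by edgeR, 2 by DESeq2, and 0 to 1 when 1 animal was left out (1 without control 4). The members' median log2 fold change ran from -0.091 to -0.00055 when 1 animal was left out, the end near 0 being without control 4, and from -0.08 to -0.04 under the other settings. For sex, leaving out 1 animal gave 1 (without control 4, with 1024 of 15545 genes) to 5 members (without control 11, with 1064 of 15546 genes) at an unadjusted p below 0.05. For the interaction it gave 3 (without control 4, with 679 genes) to 22 (without control 11, with 955 genes), and 0 to 3 members called: Kcnv1, Kcnip2 and Kcnq5 without control 11, when control 4 was the only male control and 37 of 15546 genes were called over all. At an exact permutation p below 0.05 there were 19 members without control 4, where Kcnj4 turned with p = 0.612. The cause was not tested.

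Of 40 members named by the rule and with a fold change, 29 kept their direction under every alternative, and 11 did not. Members named outside the rule, such as Kcnip2, which turned without control 4, are not in this count. Under voom with quality weights Kcnj9 was at 0.012 and Kcnmb4 at 0.19. Leaving out 1 animal gave ranges of -0.093 to 0.062 for Kcnj9, -0.14 to 0.30 for Kcnmb4, -1.17 to 0.11 for Kcnh4, -0.16 to 0.053 for Kcns3, -0.35 to 0.10 for Kcnf1, -0.068 to 0.37 for Kcnrg, -0.92 to 0.39 for Kcnv1, -1.67 to 0.25 for Kcnj4, -2.13 to 0.91 for Kcnh3, -0.010 to 0.068 for Kcnt1 and -0.026 to 0.012 for Kcnip4. With the longest transcript as gene length the summed level of all members per kilobase was 1027 CPM. No paired analysis was possible because the genotypes share no animal numbers. With 4 controls, differences under about 0.2 in log2 could not be separated from the spread between animals in most members (median SE 0.10), and members near the floor, such as Kcnn4, have wider errors.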

Other observations

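Potassium channel genes varied more between animals than genes at large: the SD of log2 CPM over the 12 animals had a median of 0.19 over the 82 tested members and 0.12 over all genes tested, a description that is not matched for level. The most variable were Kcnh3 (1.51), Kcne2 (1.19) and Kcnj4 (0.99), each through 1 or a few libraries. Of the noncoding members, Kcnq1ot1, the antisense RNA of the imprinted Kcnq1 locus, held 8046 counts over the 12 libraries and was at a log2 fold change of 0.04 ± 0.13 (SE). Kcnq1, which spans it on chromosome 7, was at -0.42 ± 0.28 and only 0.132 CPM per kilobase. Kcnd3os (-0.21 ± 0.23) and Kcnmb4os2 (0.01 ± 0.34) overlap Kcnd3 and Kcnmb4 on the opposite strand, over 12.2% and 34.2% of their exon length, and reads over that part cannot be told apart without a known strand setting.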
